A study of Mus musculus with 2 samples.

Results

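MicroRNA genes of 4 imprinted loci were examined in adult mouse heart: Mir335 of the Mest locus, Mir483 of the Igf2 locus, Mir675 of the H19 locus, and Mir296 and Mir298 of the Gnas locus. They were chosen by name, and their identifiers in the GENCODE M21 annotation gave 5 of the 2202 microRNA genes in the count files. Small RNA was sequenced from the whole heart of male B6CASTF1/J mice, a first-generation hybrid, aged 2 months. The 2 libraries are numbered in the labels as biological replicates of 1 group, for which no treatment is given. The labels give both libraries the same donor identifier, so separate animals rest on the sample descriptions alone. The libraries were limited to short fragments of microRNA size. B6CASTF1/J animals carry one genome of C57BL/6J and one of CAST/EiJ, but the files hold no counts per parental allele, so imprinting itself was not measured. The assembly was mm10 for both genomes, and any loss of reads through sequence differences of CAST/EiJ was not measured. Fetal and newborn hearts were not analysed here, and a level at 2 months is given as it stands, with no change over age.

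Genomic imprinting leaves a gene active on the copy from one parent and silent on the copy from the other. Mest, Igf2 and the antisense transcript Nespas of the Gnas locus are known to be read from the paternal copy, and H19 from the maternal copy. Igf2 encodes a fetal growth factor, H19 is a long noncoding RNA, and both are known for high expression before birth and a sharp decline afterwards. A microRNA is cut from a hairpin in a longer transcript, and bases 2 to 8 of the mature strand, the seed, guide it to its targets.

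The mature strands show which small RNAs a read of each gene can stand for. Sequences were taken from RefSeq on build GRCm38.p6, where all 5 genes had an entry at the same coordinates as in GENCODE, with 10 mature strands. They are written 5′ to 3′ with the seed in capitals.
miR-335-5p: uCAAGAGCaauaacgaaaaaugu
miR-335-3p: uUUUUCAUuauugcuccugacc
miR-483-5p: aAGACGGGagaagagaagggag
miR-483-3p: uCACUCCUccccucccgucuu
miR-675-5p: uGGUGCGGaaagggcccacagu
miR-675-3p: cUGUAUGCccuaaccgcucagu
miR-296-5p: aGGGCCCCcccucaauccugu
miR-296-3p: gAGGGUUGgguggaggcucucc
miR-298-5p: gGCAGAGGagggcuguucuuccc
miR-298-3p: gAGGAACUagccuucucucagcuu

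The 10 strands carried 10 different seeds. None of these was also the seed of another gene's mature strand among the 1738 mature strands of the RefSeq table. The genes therefore share an imprinted setting and not a seed family. Guanine and cytosine made up 30.4% of miR-335-5p and 36.4% of miR-335-3p. The strands of the other 4 genes lay between 50% in miR-298-3p and 68.2% in miR-296-3p.

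Counts in the files are for a whole hairpin gene, so the 5p and 3p strands of a gene could not be separated. The hairpins of Mir335 and Mir675 are shown because these genes had the most and the fewest reads. Capitals mark the mature strands.
Mir335: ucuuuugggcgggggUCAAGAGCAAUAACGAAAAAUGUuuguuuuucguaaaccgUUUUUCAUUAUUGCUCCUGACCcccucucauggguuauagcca
Mir675: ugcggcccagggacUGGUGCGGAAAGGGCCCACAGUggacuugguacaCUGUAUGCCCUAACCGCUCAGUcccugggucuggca

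Reads that map to several places in the genome enter no gene in these files, and made up 48.0% of the reads in replicate 1 and 46.4% in replicate 2. Among the 1005 hairpins of the RefSeq table, the longest stretch that any of the 5 hairpins had in common with a hairpin of another gene, on either strand, was 13 bases, in Mir483. In Mir335, Mir296 and Mir298 it was 12 bases, and in Mir675 it was 11 bases. None of the 10 mature strands had an exact match in a GENCODE transcript of a gene other than its own or its host, on either strand, over 141767 transcripts. Sequence outside annotated transcripts was not searched.

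The genes sit differently within their loci. Mir335 lies on the plus strand at chr6:30741299-30741396 (mm10), in an intron of Mest, which encodes a hydrolase-like protein of mesodermal tissues. Of the 11 annotated Mest transcripts, 7 span the hairpin, none has an exon there, and the nearest exon is 475 bases away. Mir483 lies on the minus strand at chr7:142654924-142654996, in an intron of Igf2 and of the longer overlapping gene Gm49394. The hairpin is spanned by 7 of 9 Igf2 transcripts and lies 446 bases from the nearest Igf2 exon.

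Mir675 lies on the minus strand at chr7:142577064-142577147, within an exon in 3 of the 4 H19 transcripts that span it. It is 77777 bases from Mir483, and both are on the same strand. Mir296 at chr2:174267047-174267125 and Mir298 at chr2:174267504-174267585 lie on the minus strand, with 379 bases from the end of one to the start of the other. No gene of this annotation spans either of them on their strand. The annotated end of Nespas lies 13652 bases from Mir298, and Gnas, on the plus strand, lies 16735 bases away.

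**Figure D1:**
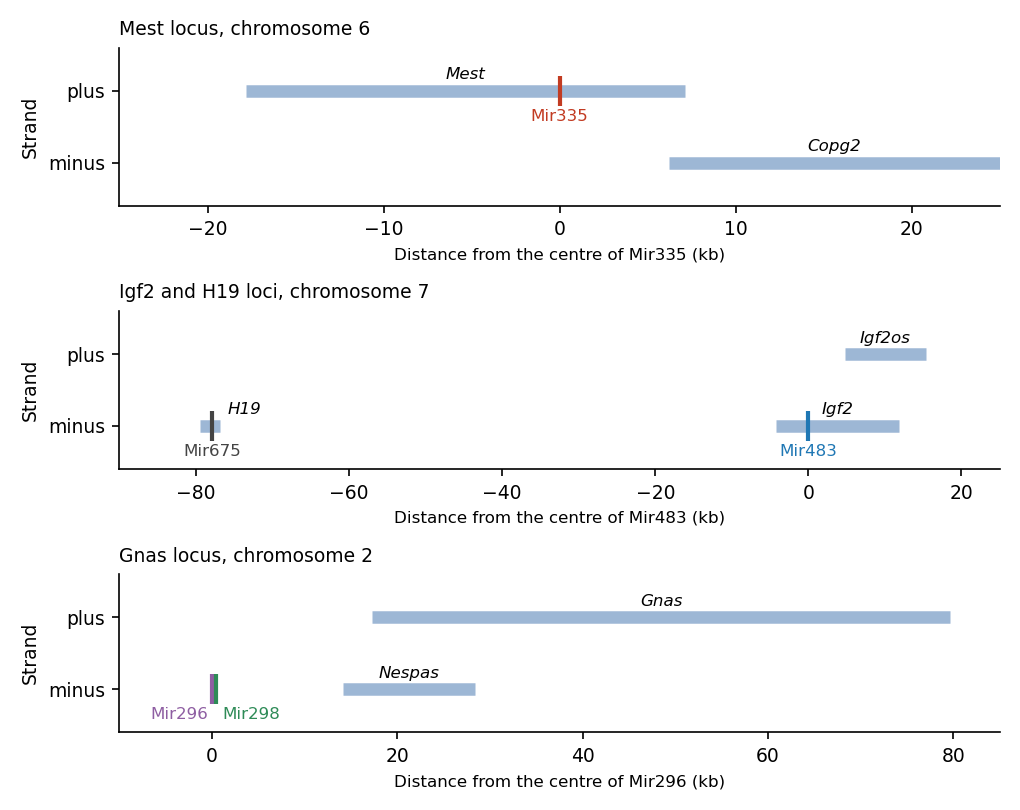
Maps of the 3 chromosome regions, with distance in kb from the centre of Mir335, Mir483 or Mir296 on the horizontal axis and strand on the vertical axis. Bars are selected annotated genes, cut at the edge of the panel, and ticks are the microRNA genes. Other annotated genes there, such as Gm49394, are not drawn. Mir335, Mir483 and Mir675 fall inside a gene on their own strand, and Mir296 and Mir298 fall outside Nespas and Gnas.

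Of these genes, 4 were read in adult heart and 1 was not. Mir335 was at 913 and 970 CPM, the count of a gene per 1000000 counts over all microRNA genes of the library. Mir483, Mir298 and Mir296 were between 24.1 and 58.5 CPM, and Mir675 had no read. With detection set at 2 CPM or more in both libraries, 4 of the 5 genes were detected, beside 337 of all 2202 genes (15.3%). The median level of the 5 genes was 39.9 CPM, and that of all 2202 genes was 0 CPM. As the genes were named with earlier results of these data known, the difference from that background is a description and was not tested.

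The levels are read counts over library totals of 3650782 microRNA reads in replicate 1 and 3810675 in replicate 2. They were not divided by length, since a read of this size covers a mature strand and the hairpins are all short, from 73 to 98 bases. They also hold the differences in how well each small RNA is captured in a library, which were not measured, so an order between genes is an order of counts. In whole heart, fewer cells that express a gene and less RNA per cell cannot be told apart.

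Mir335, whose microRNA is known from mesenchymal cells and as a suppressor of metastasis, had 3543 counts in replicate 1 (95% exact Poisson interval 3427 to 3662) and 3481 counts in replicate 2 (3366 to 3599). Its level was 970 CPM in replicate 1 and 913 CPM in replicate 2, a mean of 942 CPM ± 40.3 (SD, n = 2). The libraries were thus close, and Mir335 ranked 68 of 2202 genes by mean level. It held 89.4% of the counts of the 5 genes in replicate 1 and 88.9% in replicate 2.

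Mir483, whose microRNA is known from fat cells and from tumours that express Igf2, had 154 counts in replicate 1 (131 to 180) and 223 in replicate 2 (195 to 254). This was 42.2 CPM in replicate 1 and 58.5 CPM in replicate 2, a mean of 50.4 CPM ± 11.6 (SD, n = 2) and rank 173 of 2202. Replicate 2 was the higher library, and the counting intervals of the 2 libraries did not overlap.

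Mir298 had 178 counts in replicate 1 (153 to 206) and 118 in replicate 2 (97.7 to 141). Its level was 48.8 CPM in replicate 1 and 31.0 CPM in replicate 2, a mean of 39.9 CPM ± 12.6 (SD, n = 2), at rank 187. Here replicate 1 was the higher library, opposite to Mir483.

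Mir296, whose microRNA is known from the response of endothelial cells to angiogenic factors, had 88 counts in replicate 1 (70.6 to 108) and 93 in replicate 2 (75.1 to 114). With 24.1 CPM in replicate 1 and 24.4 CPM in replicate 2, the mean was 24.3 CPM ± 0.213 (SD, n = 2), at rank 210. The spread between the libraries was smaller than the counting interval of either library.

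Mir675, whose microRNA is known to be cut from H19 and to limit growth of the placenta, had 0 counts in both libraries on its own strand, on the opposite strand, and without regard to strand. Taking 3 counts as the limit that a count of 0 allows, its upper limit was 0.822 CPM in replicate 1 and 0.787 CPM in replicate 2 among uniquely placed reads. The two-sided exact Poisson interval given for the other genes is wider and reaches 3.69 counts, or 1.01 and 0.968 CPM. These limits and the intervals above cover counting error only, since reads amplified by PCR were not told apart from independent molecules. The count holds any uniquely placed short read on the hairpin, so fragments of the H19 exon there were at 0 as well. No read in either library was set aside as lying in more than 1 gene on the sense strand (0 reads in each).

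**Figure D2:**
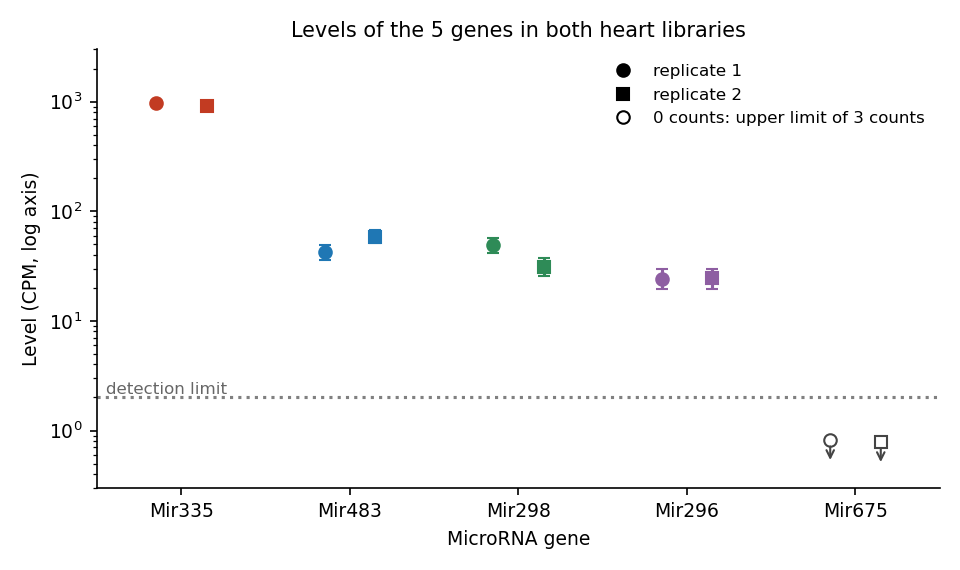
Levels of the 5 genes in CPM on a log axis, with circles for replicate 1, squares for replicate 2, bars for 95% exact Poisson intervals and a dotted line at 2 CPM. Mir335 sits at 970 and 913 CPM, Mir483, Mir298 and Mir296 sit between 24.1 and 58.5 CPM, and the open symbols with arrows mark the limit of 3 counts for Mir675.

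The order of the genes by mean level was Mir335, Mir483, Mir298, Mir296 and Mir675, and not every step of it held in both libraries. Mir335 exceeded Mir483 in both libraries, by a mean log2 ratio of 4.23 ± 0.39, and exceeded Mir296 by 5.25 ± 0.07 (SD, n = 2 each). The order of Mir483 and Mir298 turned between the libraries: of the counts of both genes, Mir483 held 46.4% in replicate 1 (40.9 to 51.9, Clopper-Pearson 95% interval) and 65.4% in replicate 2 (60.1 to 70.4). With a mean log2 ratio of 0.35 ± 0.79 (SD, n = 2), these neighbours did not differ beyond their spread.

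Of Mir298 and Mir296, the adjacent pair of the Gnas locus, Mir298 had the higher count in both libraries. The count of Mir298 was 2.02 times that of Mir296 in replicate 1 and 1.27 times in replicate 2. Their log2 ratio was 0.67 ± 0.47 on average (SD, n = 2). Its share of the counts of the pair was 66.9% in replicate 1 (60.9 to 72.5) and 55.9% in replicate 2 (48.9 to 62.7). In replicate 2 the counting interval holds equal shares, so Mir298 was above Mir296 beyond counting error in replicate 1 alone.

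Igf2 and H19 are neighbours on chromosome 7, and their microRNA genes stood far apart. The limit for Mir675 was set at 3 counts per library. The count of Mir483 was 51.3 times that limit in replicate 1 and 74.3 times in replicate 2. Against the same limit, Mir335 stood at 1181 and 1160 times in replicates 1 and 2. Mir298 stood at 59.3 and 39.3 times, and Mir296 at 29.3 and 31.0 times. These ratios leave out counting error in the counted gene, so they are not lower bounds on the difference. No ratio between genes was tested, because an exact permutation of signs over 2 libraries reaches no two-sided p below 0.5.

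Every read of the 4 detected genes was on the strand of the hairpin. The opposite strand had 0 counts for each of them in both libraries, and the count without regard to strand equalled the count on the gene's strand. No annotated gene overlaps any of the 5 hairpins on the opposite strand.

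**Figure D3:**
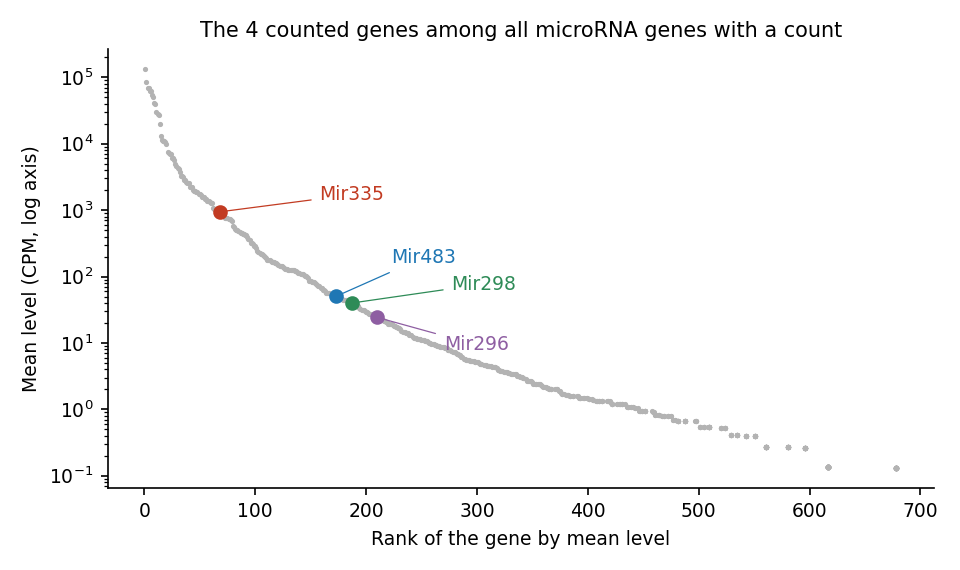
Mean level in CPM on a log axis against the rank of the gene, for the 722 genes with a count in at least 1 library, with Mir335, Mir483, Mir298 and Mir296 in colour. Mir335 at rank 68 stands above the other 3 genes, which lie close together between ranks 173 and 210.

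The 5 genes together held 0.109% of the microRNA counts in replicate 1 (0.105 to 0.112, Clopper-Pearson 95% interval) and 0.103% in replicate 2 (0.0995 to 0.106). The mean was 0.106% ± 0.00411 (SD, n = 2). Most of this sum was Mir335, and it varied less between the libraries than Mir483 and Mir298, which differed in opposite directions.

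Differences between the 2 libraries were compared with counting noise for all genes past a low-count filter, by an exact binomial test with Benjamini-Hochberg adjustment. Of 320 genes tested, 206 differed at an adjusted p under 0.05 (64.4%), so a call is the common outcome here. It compares 2 libraries of 1 group, not conditions, and the spread it finds may be technical or lie between animals. Of the 5 genes, 4 were tested and 3 were called, a share near that background, and Mir675 did not pass the filter.

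Mir298 was lower in replicate 2, with a log2 ratio of replicate 2 to replicate 1 of -0.67 (95% interval -1.02 to -0.32, exact binomial test, adjusted p = 0.000189). Mir483 was higher in replicate 2, with a log2 ratio of 0.46 (0.16 to 0.76, adjusted p = 0.00438, same exact test). Under the other scalings, filters and the count without strand, the adjusted p of the exact test ran from 0.00012 to 0.0025 for Mir298 and from 0.00169 to 0.00701 for Mir483. The median absolute log2 ratio over the 320 genes was 0.436, so Mir483 moved about as much as the middle gene and Mir298 somewhat more.

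Mir335 had a log2 ratio of -0.10 (-0.17 to -0.03, exact binomial test, adjusted p = 0.00652). It lost the call without the low-count filter (-0.02, adjusted p = 0.734), at 10 CPM or more in both libraries (-0.07, adjusted p = 0.0509) and without regard to strand (-0.07, adjusted p = 0.0777). Mir296 had a log2 ratio of 0.00 (-0.43 to 0.44, exact test, adjusted p = 1). For Mir296 the counting interval leaves room for a difference nearly as large as that of Mir483.

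Markers of cell types also differed between the libraries, but markers of 1 cell type did not all move the same way. Of 7 heart muscle genes, 4 were higher in replicate 2 by CPM and 3 were lower, with a summed level of 4032 CPM in replicate 1 and 6942 CPM in replicate 2. Mir208a was higher in replicate 2 (1329 and 4265 CPM), Mir499 was nearly level (2601 and 2507 CPM) and Mir1a-2 was lower (68.8 and 39.4 CPM). Of the 3 blood genes, Mir144 and Mir486 were higher in replicate 2 (411 and 477 CPM, 885 and 1267 CPM) and Mir451a was lower (1925 and 1217 CPM). Of the 2 smooth muscle genes, Mir143 was nearly level (49081 and 50331 CPM) and Mir145a was lower in replicate 2 (5530 and 2953 CPM). The other cell types had 1 marker gene each, the neuronal genes aside. Endothelial Mir126a (52212 and 70228 CPM) and skeletal muscle Mir206 (37.0 and 303 CPM) were higher in replicate 2, and liver Mir122 (142 and 97.9 CPM) and islet Mir375 (9.59 and 7.61 CPM) were lower. The part of cell makeup in the differences of Mir483 and Mir298 was not tested.

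**Figure D4:**
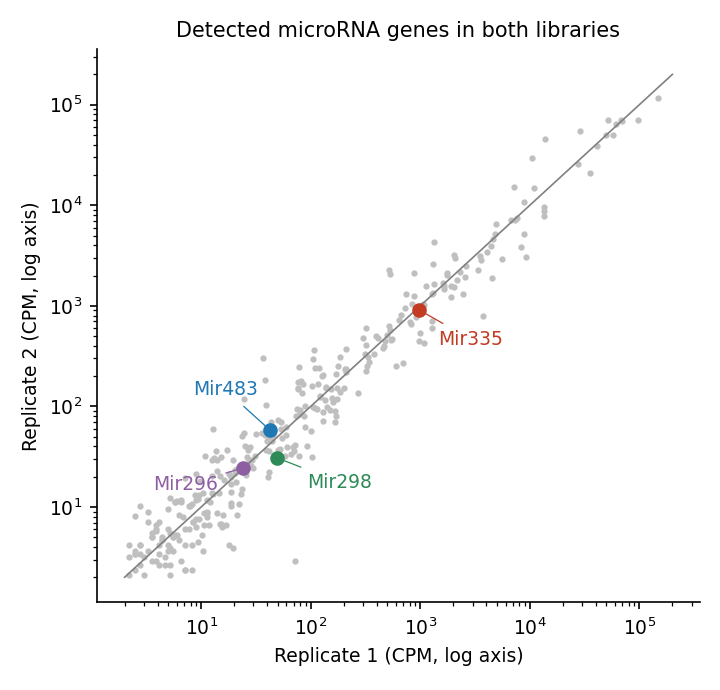
Level in replicate 2 against level in replicate 1, both in CPM on log axes, for the 337 genes at 2 CPM or more in both libraries. Points are genes and the line marks equal levels: Mir335 and Mir296 lie close to it, Mir483 lies above it and Mir298 below it.

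Other imprinted microRNA genes give a scale for these levels. The Dlk1-Dio3 region on chromosome 12 holds a large imprinted group of microRNA genes, read from the maternal copy. A list of 52 of its genes, all found on chromosome 12, held 0.312% ± 0.00132 of the counts (SD, n = 2), with 40 genes detected. Mir127 led it at 1084 CPM in replicate 1 and 1013 CPM in replicate 2, followed by Mir411 at a mean of 362 CPM ± 64.5 and Mir541 at 306 CPM ± 45.9 (SD, n = 2 each).

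Mir335 fell just below Mir127, at 0.895 times its counts in replicate 1 and 0.902 times in replicate 2, and above the other 51 genes of that list by mean level. Mir483 lay below 11 genes of the list, Mir298 below 13 and Mir296 below 18. The median of the list was 10.4 CPM, under each of the 4 detected genes, while Mir675, at 0, was under the 47 genes of the list that had a count. No test was made between the loci, which are each read as single genes in the same 2 libraries.

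**Figure D5:**
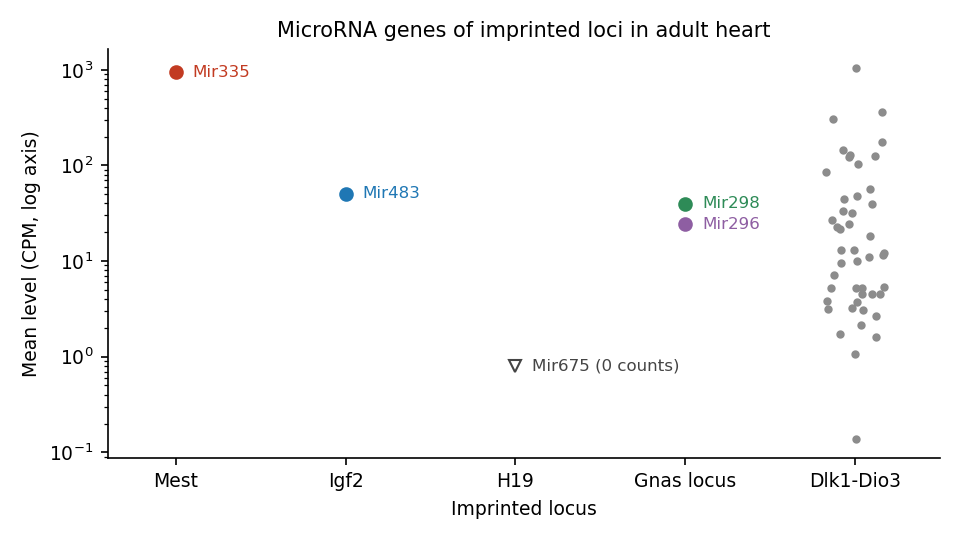
Mean level in CPM on a log axis by imprinted locus, with 1 point per gene and the 47 counted genes of the Dlk1-Dio3 list at the right, spread sideways for display. Mir335 stands level with the highest gene of that list, Mir483, Mir298 and Mir296 stand in its upper part, and the open triangle marks the mean limit of 3 counts, 0.805 CPM, for Mir675.

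Detection was also set against position in a host gene. Among all 2202 genes, 142 of 814 that lie in an intron of a gene on the same strand were detected (17.4%), as were 87 of 365 that overlap an exon (23.8%) and 108 of 1023 with no host (10.6%). Mir335 and Mir483 belong to the first class, Mir675 to the second, and Mir296 and Mir298 to the third. The exonic class, which holds the undetected Mir675, had the highest detected share of the 3 classes.

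For each counted gene, the 2 genes most like it over both libraries were found by the distance of log2(CPM + 0.5) over 2 values, which measures level and little else. Mir335 was nearest to Mir324, at 937 and 860 CPM in replicates 1 and 2 (distance 0.10), and then to Mir127 (0.22). Mir483 was nearest to Mir409, at 44.9 and 51.7 CPM (0.20), and to Mir32, at 38.1 and 52.5 CPM (0.21). Mir296 was nearest to Mir877, at 24.4 and 25.7 CPM (0.08), and to Mir376c (0.17), and Mir298 was nearest to Mir137 (0.24) and Mir1198 (0.24). Of these 8 genes, 3 belong to the Dlk1-Dio3 list (Mir127, Mir409 and Mir376c), whose genes make up 11.9% of the 337 detected genes.

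The tissue label was checked against microRNA genes known from single cell types. Of the heart muscle genes, Mir499 was at 2554 CPM ± 66.2, Mir208a at 2797 CPM ± 2077 and Mir208b at 71.1 CPM ± 65.7 (SD, n = 2 each). Mir1a-1 and Mir1a-2 are copies of 1 microRNA, and Mir133a-1 and Mir133a-2 are copies of another. Reads shared between copies enter no gene, and these genes had at most 251 counts each. Endothelial Mir126a was at 61220 CPM ± 12739 and smooth muscle Mir143 at 49706 CPM ± 884. Blood genes were read too, with Mir451a at 1571 CPM ± 501, Mir486 at 1076 CPM ± 270 and Mir144 at 444 CPM ± 46.2. Liver Mir122 was at 120 CPM ± 31.1, islet Mir375 at 8.60 CPM ± 1.40 and skeletal muscle Mir206 at 170 CPM ± 188. The neuronal genes Mir124a-1 and Mir9-1 had 0 and 1 counts in each library, but they too have copies whose shared reads enter no gene. Of those copies, looked up after the marker values were seen, Mir9-3 was read 101 times in replicate 1 but 1 time in replicate 2, while Mir9-2, Mir124a-2 and Mir124a-3 had 0 in both. Neuronal reads were therefore not shown to be absent. Which of these cell types the reads of Mir335, Mir483, Mir298 and Mir296 came from was not tested.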

How the data were processed

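The authors deposited 1 file of raw read counts per library, with 3 count columns (without regard to strand, on the gene's strand, on the opposite strand) for 2202 microRNA genes and 4 rows that name no gene. Per the text deposited with each file, the assembly was mm10 and the annotation GENCODE M21. The aligner and its settings are not given in the sources used here. Gene rows held 35.2% of the reads in replicate 1 and 36.4% in replicate 2, and all other rows stayed outside the library sizes.

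Counts on the gene's strand were scaled to CPM over all gene rows. For each gene, the counts of both libraries were compared by an exact binomial test (two-sided) against TMM library sizes (edgeR 4.0.16, filterByExpr) in R 4.3.3. On data simulated with counting noise alone, the test recovered 100% of 3-fold changes and 69.6% of 1.5-fold changes. It called 4.26% of unchanged genes. Spread beyond counting noise was not simulated. Alternatives used DESeq2 1.42.0 size factors, plain totals, other filters, denominators, a pseudocount of 1 CPM, counts without strand, and each replicate left out. Figures and intervals used Python 3.11.15, scipy 1.17.1 and matplotlib 3.10.9. Genes and lists were chosen with earlier results of these data known. Genes named beside the 5 are the 2 nearest in level to each, the 3 leading genes of the Dlk1-Dio3 list, whose symbols matched for 52 of 54, the most abundant gene and the cell type markers. With 2 libraries, p-values measure counting noise between these samples.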

Additional observations from a re-analysis of the deposited data

How the results depend on the processing

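Of 73 recomputed values, 57 stayed on the same side of the threshold or within the replicate spread, or within 1.5 times for counts of genes. Part of these could not have moved: with 2 libraries, a mean without 1 of them always lies within the replicate spread. Nor could the level of Mir675 move, as it had no count. The 4 detected genes were also 4 at 10 CPM. At 1 CPM, without strand and with either replicate left out they were 4 as well. For the 5 genes, those settings can only add to the number detected, and Mir675 had no count with which to be added. Without strand this holds because their counts stayed the same over smaller totals. Other denominators rescaled all genes of a library together. The count without strand did not, as reads of other genes became ambiguous while the counts of the 5 genes stayed the same. Without regard to strand, Mir335 was at 1222 CPM, Mir483 at 65.2 CPM, Mir296 at 31.5 CPM and the 5 genes held 0.137%, with 2790062 and 2965399 reads in genes, since 860837 and 845377 reads then stand in the row of ambiguous reads. Over all uniquely mapped reads, Mir335 was at 830 CPM, Mir296 at 21.4 CPM and the share was 0.0931%. With the most abundant gene, Mir378a, left out, they were 1087 CPM, 28.0 CPM and 0.122%. The log2 ratio of Mir675 to Mir483 was -6.65, -5.66 with a pseudocount of 1 CPM and -7.02 without strand, and it follows the pseudocount because Mir675 had no count. Between the libraries, Mir335 had a log2 ratio of -0.0234 without the low-count filter, -0.0715 at 10 CPM or more and -0.0680 without strand, past the threshold in none of them. The counts of Mir335 were 3543 and 3481 in each of these settings. Only the library sizes and the set of genes adjusted together changed. The TMM library sizes were computed from the genes that passed each filter, and without strand from the counts and totals of that column. Mir296 turned to -0.0156 with DESeq2 size factors and was called in no setting. No paired analysis was possible because there is 1 group. Depth limits Mir675 to an upper limit, and a limit on reads placed in several positions cannot be given from these counts.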
